A study of Mus musculus with 9 samples.

Results

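The 39 Hox genes of the mouse were examined in haematopoietic stem cells, out of 52550 gene identifiers in the deposited count table. They were found by mapping Ensembl identifiers to symbols and keeping each protein-coding gene whose symbol is Hoxa, Hoxb, Hoxc or Hoxd followed by a number alone, which gave 11 Hoxa, 10 Hoxb, 9 Hoxc and 9 Hoxd genes. RNA was sequenced from 9 libraries in 3 groups of 3. Old KO libraries came from mice of 22 to 24 months with the genotype label B6N.129S6-Sphk2tm1Rlp/J (Sphk2 cKO), which affects sphingosine kinase 2; the sample titles call it a knockout and the labels name no Cre driver. Old WT libraries came from wild-type mice of the same ages, and young WT libraries from wild-type mice of 2 months. In all 3 groups each library was made from 1000 bone marrow cells sorted as Lin-, Sca1+, c-Kit+, CD48- and CD150+, whose cDNA was tailed and amplified for 13 cycles. The labels call the libraries of a group technical replicates and name no animal, so p-values measure only the spread between these libraries, which may be technical.

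Hox genes encode homeodomain transcription factors that give cells along the body axis their positional identity. In each of the 4 clusters the order of the genes follows the order of their use along the axis, and genes with the same number in different clusters are paralogues. In blood formation, Hoxa and Hoxb genes are known for their activity in stem and early progenitor cells, HOXA9 acts with the cofactor MEIS1, and the MLL complex keeps Hoxa genes active while Polycomb complexes silence the clusters.

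The libraries differed widely in depth and in signal outside genes. Counts in genes lay between 11284847 and 17544945 in old KO, 3145167 and 5115003 in old WT, and 28088637 and 74021822 in young WT libraries. Counts outside any gene took 45.0 to 61.9% of all counts in old KO, 80.8 to 87.7% in old WT and 6.51 to 12.5% in young WT libraries. Exons of 1134 olfactory receptor genes, which blood stem cells are not known to use, held 5.55 to 7.29 reads per kb in old KO, 5.41 to 10.4 in old WT and 1.09 to 1.43 in young WT libraries. This density was used as each library's background. A gene with 20 counts or more was called above background where its count also reached 5 times the number expected from this density and its exon length. By that measure 10 of 11 stem cell markers were above background in at least 2 old KO libraries, 0 in old WT and 9 in young WT. Sphk2 itself had 12, 23 and 8 counts in old KO, 20, 1 and 35 in old WT and 1684, 88 and 576 in young WT libraries. It was above background only in young WT, so it does not check the KO label.

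The Hox genes of the Hoxc and Hoxd clusters were silent in every library. The Hoxc cluster (chromosome 15, 102921103 to 103036852, GRCm38) and the Hoxd cluster (chromosome 2, 74668310 to 74765142) had no Hox gene above background in any of the 9 libraries. Gm28309, a processed transcript inside the Hoxd cluster that shares exon bases with Hoxd10 and Hoxd11, was above background in old KO replicate 2 alone, at 29 counts. Hoxc counts ran from 0 to 40 in old KO, 0 to 70 in old WT and 0 to 10 in young WT libraries, and Hoxd counts from 0 to 43, from 1 to 53 and from 0 to 8 in the same order of groups. The highest Hoxc or Hoxd value stood at 3.76 times the olfactory receptor background in old KO, 2.77 times in old WT and 3.80 times in young WT libraries. Over the exons of both clusters together the read density was 7.82, 6.57 and 4.03 reads per kb in old KO, 10.05, 3.88 and 8.69 in old WT and 0.832, 0.657 and 0.876 in young WT libraries. The density of the silent clusters was thus several times higher in each old library than in each young one, although the young libraries were deeper, and so was that of the olfactory receptors.

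The part of all Hox counts that fell on the silent clusters needs no scaling between libraries. It was 21.2% (95% exact Clopper-Pearson interval 19.3 to 23.3), 10.5% (9.42 to 11.7) and 4.64% (4.01 to 5.34) in old KO libraries. It was 33.9% (31.4 to 36.5), 38.0% (33.6 to 42.6) and 51.7% (48.1 to 55.3) in old WT libraries. It was 0.191% (0.135 to 0.262), 0.319% (0.215 to 0.455) and 0.557% (0.398 to 0.757) in young WT libraries. The 3 groups did not overlap. These clusters hold 44.4% of Hox exon bases, the share that evenly spread reads would give. The old WT libraries lay on either side of that share and none of their intervals held it, while all old KO and young WT libraries lay below it. The intervals cover counting error only, since reads after PCR are not independent molecules.

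**Figure D1:**
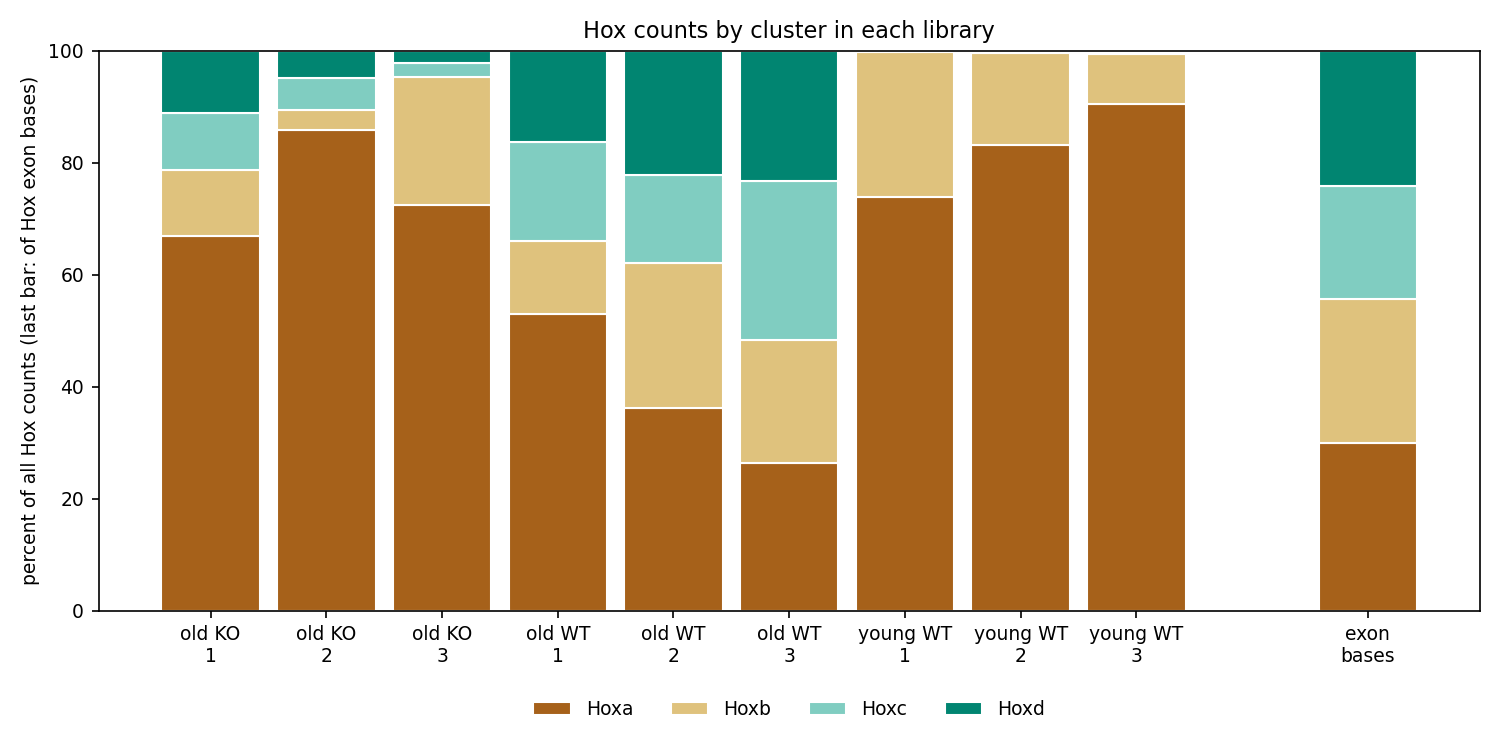
Percent of all Hox counts on each of the 4 clusters (vertical axis) in each library, with the share of each cluster in Hox exon bases as the last bar. Hoxc and Hoxd together take 4.64 to 21.2% in old KO, 33.9 to 51.7% in old WT and 0.191 to 0.557% in young WT libraries, against 44.4% of the exon bases.

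In each old KO and young WT library most Hox counts fell on the Hoxa cluster (chromosome 6, 52155590 to 52260880, minus strand), while in old WT only replicate 1 had most of them there. The Hoxb cluster lies on chromosome 11 (96194316 to 96368256, plus strand). Hoxa took 67.0, 85.8 and 72.5% of Hox counts in old KO, 53.0, 36.3 and 26.4% in old WT and 73.9, 83.2 and 90.5% in young WT libraries, and holds 30.0% of the exon bases. Hoxb took 11.8, 3.72 and 22.8% in old KO, 13.1, 25.8 and 21.9% in old WT and 25.9, 16.5 and 8.98% in young WT libraries, with 25.6% of the exon bases. In CPM, which sets each gene's count against all counts in genes of its own library, Hoxa summed to 155 ± 67.0 in old KO, 84.3 ± 48.5 in old WT and 229 ± 43.6 in young WT (SD, n = 3 each).

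Of the 39 genes, 3 were above background in 2 or more old KO libraries, 0 in old WT and 8 in young WT. Over all 52403 genes with an exon length the shares were 5.85% in old KO, 1.21% in old WT and 15.9% in young WT, and over protein-coding genes 12.5, 1.96 and 35.4% in the same order. All 39 Hox genes are protein-coding, and in each group their share lay below that of protein-coding genes. In old KO and young WT it lay somewhat above that of all genes. The order among the groups was that of all genes. The 3 in old KO were Hoxa7, Hoxa9 and Hoxa10. The 8 in young WT were Hoxa3, Hoxa5, Hoxa7, Hoxa9, Hoxa10, Hoxb4, Hoxb5 and Hoxb8. Library by library, 3, 2 and 6 genes passed in old KO, 1, 0 and 0 in old WT and 7, 8 and 8 in young WT. In old WT the one pass was Hoxa9 in replicate 1. With the Hoxc and Hoxd exons as the background in place of the olfactory receptors, the counts were again 3, 0 and 8. Without old KO replicate 1 the old KO count was 1, and without young WT replicate 3 the young WT count was 5.

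**Figure D2:**
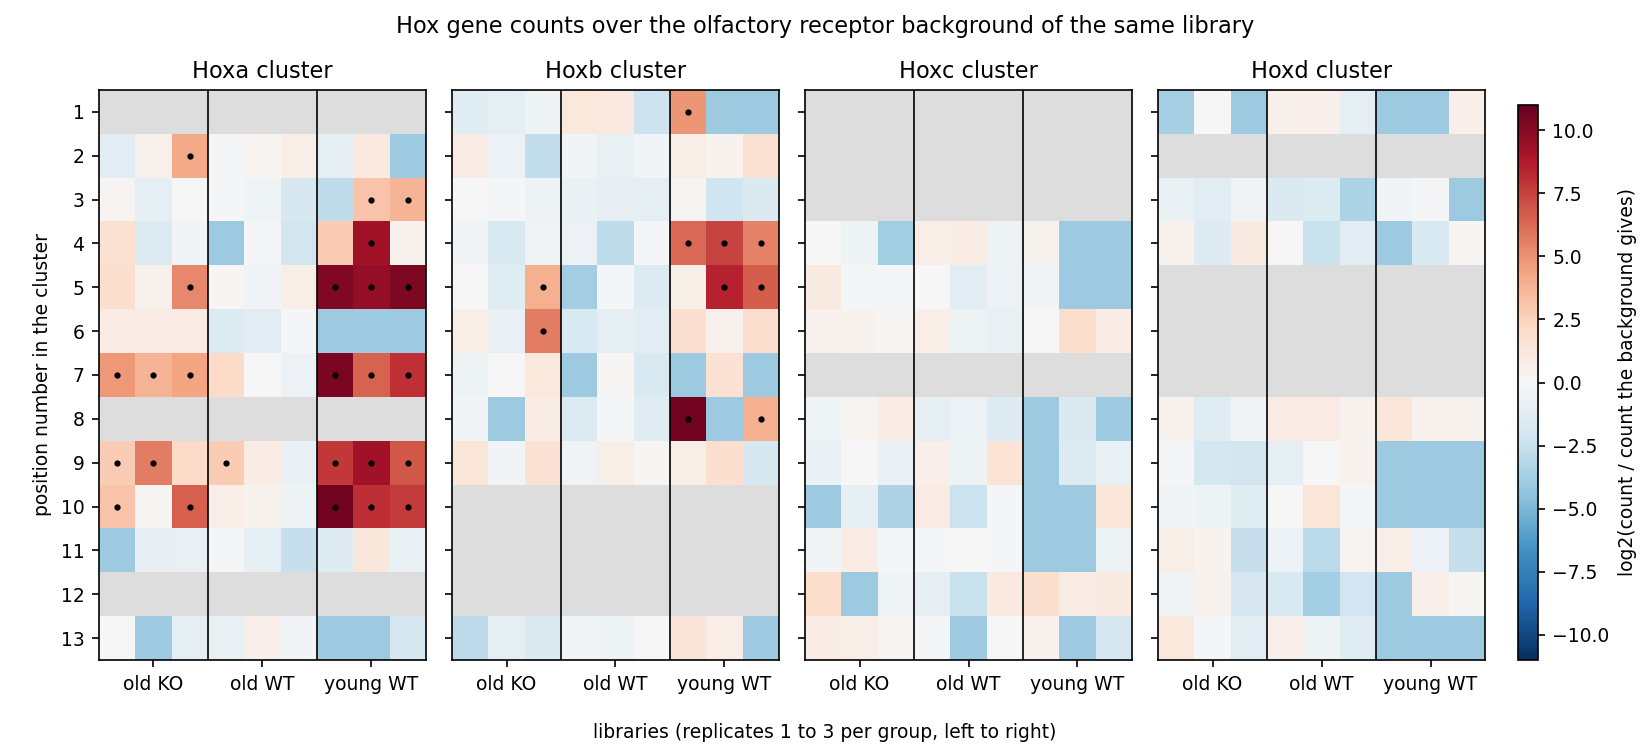
Log2 of the count over the count that the olfactory receptor background gives (colour; values under -4 are set to -4), for each Hox gene by cluster (panel) and position number (vertical axis) in the 3 libraries of each group (horizontal axis). Dots mark values above background and grey marks positions with no gene or not shown: in at least 1 young WT library dots stand at positions 3 to 5, 7, 9 and 10 of Hoxa and 1, 4, 5 and 8 of Hoxb, and no dot appears in Hoxc or Hoxd.

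Hoxa5, a central gene of the cluster, gave the highest mean level per exon length in young WT. It had 45, 19 and 399 counts in old KO, 20, 8 and 32 in old WT and 2501, 1696 and 3373 in young WT libraries. In CPM these are 3.34, 1.68 and 22.7 in old KO, 3.91, 2.54 and 9.28 in old WT and 33.8, 60.4 and 109 in young WT. All 3 young WT libraries lay above all 6 old ones, and old KO replicate 3 stood above the other old libraries. Relative to the read density of the silent clusters in the same library, Hoxa5 stood at 3.07, 1.54 and 52.8 times in old KO, 1.06, 1.10 and 1.96 times in old WT and 1602, 1376 and 2052 times in young WT.

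Promoters of Hoxa5 and Hoxa10 are shown beside that of Hoxd13, a gene at 0 counts in all young WT libraries, to set genes above background against one at 0. They are RefSeq sequences on GRCm38.p6, running from 250 bases before to 50 bases after the start site, with CpG dinucleotides in capitals. Hoxa5 lies at chr6:52204538-52204837 on the minus strand, Hoxa10 at chr6:52240805-52241104 on the minus strand and Hoxd13 at chr2:74667975-74668274 on the plus strand.
Hoxa5: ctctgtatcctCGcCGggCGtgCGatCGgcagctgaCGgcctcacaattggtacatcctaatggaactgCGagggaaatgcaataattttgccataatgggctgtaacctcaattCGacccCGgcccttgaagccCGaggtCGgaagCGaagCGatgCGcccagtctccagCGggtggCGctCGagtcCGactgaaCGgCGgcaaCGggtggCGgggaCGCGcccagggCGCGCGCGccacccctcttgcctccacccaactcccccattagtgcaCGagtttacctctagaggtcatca
Hoxa10: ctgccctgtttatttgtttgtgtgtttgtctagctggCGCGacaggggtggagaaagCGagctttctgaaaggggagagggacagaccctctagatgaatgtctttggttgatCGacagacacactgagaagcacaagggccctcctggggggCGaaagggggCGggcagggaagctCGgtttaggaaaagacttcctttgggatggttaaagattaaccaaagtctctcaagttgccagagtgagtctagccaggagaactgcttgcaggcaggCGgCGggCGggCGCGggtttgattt
Hoxd13: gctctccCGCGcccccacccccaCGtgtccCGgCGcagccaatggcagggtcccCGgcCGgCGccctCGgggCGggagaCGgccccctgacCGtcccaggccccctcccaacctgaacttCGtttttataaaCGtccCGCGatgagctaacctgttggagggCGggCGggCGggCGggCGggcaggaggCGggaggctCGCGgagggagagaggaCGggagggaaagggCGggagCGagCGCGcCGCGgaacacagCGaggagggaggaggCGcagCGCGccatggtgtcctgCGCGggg

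The 3 windows hold 29, 12 and 37 CpG in that order, against a median of 7 over 32851 promoters of the same length. A promoter entry was found for 22 of the 39 genes, with 24 entries in all. Where a gene had more than 1, only the entry nearest its outermost annotated start was used for CpG. The entries left out held 21 CpG for Hoxa10 and 25 for Hoxd11. The 7 genes with an entry among the 8 used in young WT ranged from 4 to 29 CpG with a median of 13, and the 15 others from 4 to 45 with a median of 15. The ranges overlapped. The others include Hoxa2 and Hoxb1, each above background in 1 library. The windows of Hoxa7, Hoxa9, Hoxc4 and Hoxd4 lie 3281, 3719, 15461 and 10049 bases from the gene's outermost annotated start, so they describe only 1 of the possible start sites. The 8-letter motif TGATNNAT, bound by PBX and HOX proteins together, was searched on both strands. Neither it nor the second motif contains the other. It occurred in 4 of 24 Hox entries, including 1 of the 7 used genes, Hoxb8, and in 8.85% of all promoters. TGACAG, the MEIS motif, occurred in 2 Hox entries, including Hoxa3, and in 19.2% of all promoters.

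Hoxa7, Hoxa9 and Hoxa10 were used in all young WT libraries and in at least 2 of the old KO ones. Hoxa7, a central gene, had 514, 284 and 326 counts in old KO, 123, 15 and 19 in old WT and 4552, 283 and 1106 in young WT libraries. Hoxa9, a posterior gene required for normal stem cell function, had 262, 2036 and 133 counts in old KO, 377, 53 and 35 in old WT and 1407, 3749 and 913 in young WT. Hoxa10, its posterior neighbour, had 188, 26 and 1769 counts in old KO, 53, 23 and 23 in old WT and 6209, 1016 and 980 in young WT. Hoxa7 was above background in each old KO library, Hoxa9 in replicates 1 and 2 and Hoxa10 in replicates 1 and 3. Which of the posterior genes was high differed from one old KO library to the next: Hoxa9 stood at 180 CPM in replicate 2, where Hoxa10 was at 2.30 CPM, while Hoxa10 stood at 101 CPM in replicate 3, where Hoxa9 was at 7.58 CPM.

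Hoxa3 and Hoxa4 lie closer to the anterior end. Hoxa3 had 51, 21 and 35 counts in old KO, 54, 23 and 18 in old WT and 1, 57 and 117 in young WT libraries. Hoxa4 had 34, 4 and 7 counts in old KO, 0, 8 and 4 in old WT and 13, 1022 and 3 in young WT. Hoxa4 rests on young WT replicate 2. Hoxa2, an anterior gene, had 5, 18 and 177 counts in old KO, 15, 11 and 30 in old WT and 1, 4 and 0 in young WT, so its only library above background was old KO replicate 3. Hoxa6, Hoxa11 and Hoxa13 passed in no library. Hoxa6, between Hoxa5 and Hoxa7, had 0 counts in all young WT libraries, where 3 counts in each would average 0.0813 CPM.

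Among Hoxb genes, Hoxb4, known for expanding stem cells when overexpressed, passed the background in each young WT library and in none of the old ones. It had 13, 6 and 11 counts in old KO, 16, 2 and 25 in old WT and 224, 473 and 161 in young WT libraries. Hoxb5, whose expression marks long-term stem cells in mice, had 18, 8 and 230 counts in old KO, 2, 13 and 10 in old WT and 5, 1049 and 400 in young WT. Hoxb8 had 14, 0 and 26 counts in old KO, 9, 12 and 11 in old WT and 4799, 0 and 55 in young WT. Hoxb5 and Hoxb8 differed widely even among young WT libraries: each was at or near background in one library and far above it in another. Hoxb6 was high in old KO replicate 3 alone, with 22, 8 and 544 counts in old KO, 6, 5 and 9 in old WT and 8, 3 and 10 in young WT. Hoxb1 was above background in young WT replicate 1 alone, at 78 counts. Hoxb2, Hoxb3, Hoxb7, Hoxb9 and Hoxb13 passed in no library.

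**Figure D3:**
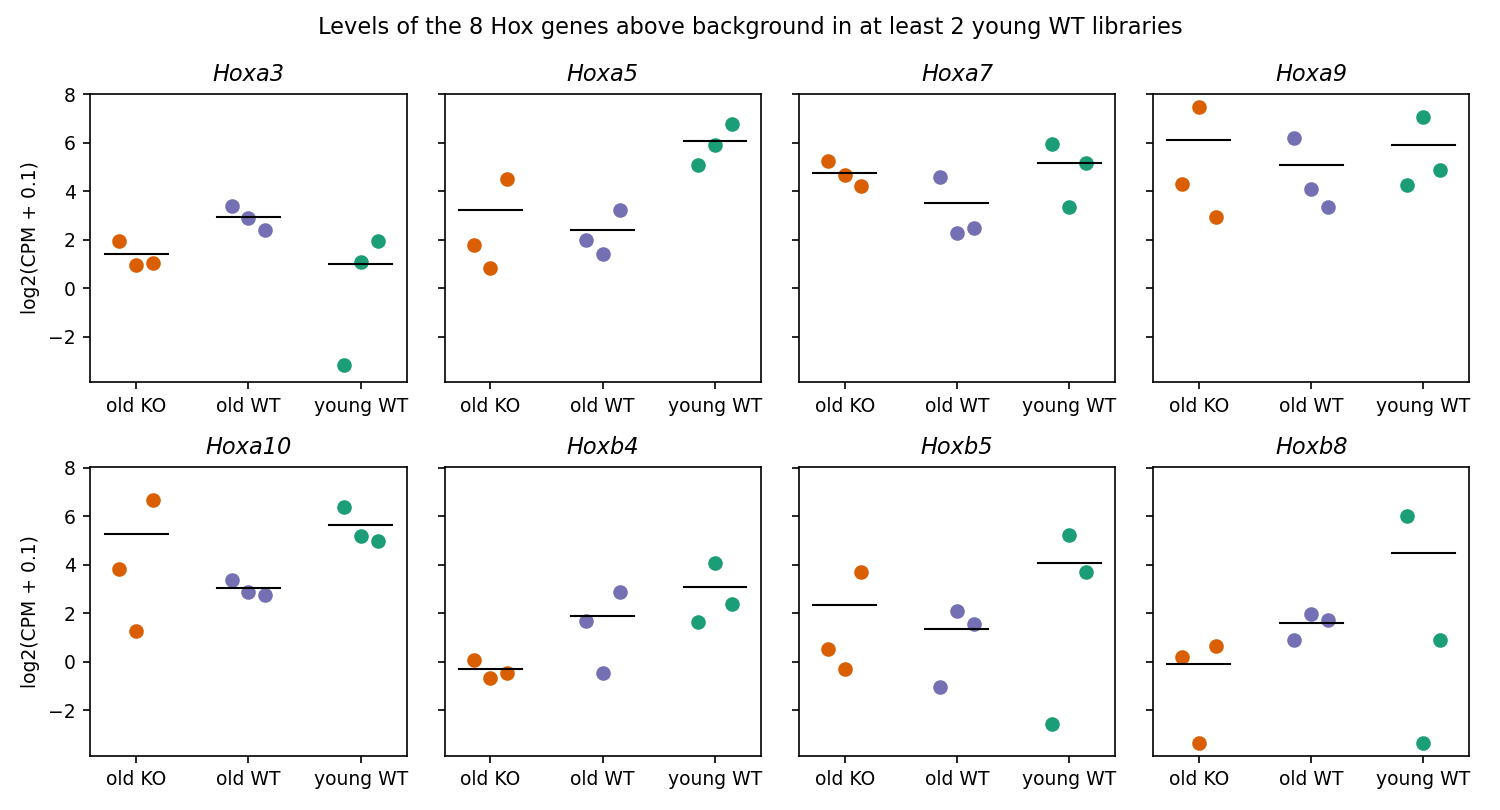
Log2(CPM + 0.1) of the 8 Hox genes that passed the background in 2 or more young WT libraries (vertical axis), by group (horizontal axis), with 1 point per library and a bar at the group's mean CPM. Young WT points lie above all old WT points for Hoxa5 and Hoxa10 only, and Hoxb5 and Hoxb8 spread over several log2 units within young WT.

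In CPM per kb of exon, the mean young WT level was 36.0 for Hoxa5, 15.5 for Hoxa10, 12.4 for Hoxa7, 10.9 for Hoxa9, 8.43 for Hoxb8, 6.02 for Hoxb5, 3.25 for Hoxb4 and 0.322 for Hoxa3. Neighbours in this order overlapped between libraries, except that all young WT values of Hoxb4 lay above those of Hoxa3. Hoxa9 is annotated with 5580 exon bases over its isoforms, which lowers its level per length. Summed over the 4 clusters, genes of positions 4 to 8 had 164, 162 and 165 CPM in the young WT libraries, although different genes made up that sum. Positions 1 to 3 had 4.61 CPM at most in young WT, and positions 9 to 13 had 61.8 to 171 CPM.

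Old WT was set against young WT to ask how Hox expression differed with age. With TMM scaling, 5 Hoxa and 3 Hoxb genes were called lower in old WT, while 2 Hoxa, 5 Hoxc and 4 Hoxd genes were called higher and the other 8 of 17 tested Hoxc and Hoxd genes were not called. With total counts only Hoxa5 was called lower. edgeR's quasi-likelihood test with Benjamini-Hochberg adjustment over 32582 genes, of which 38 were Hox genes and Hoxc10 was not tested, called 8 Hox genes lower and 11 higher at an adjusted p under 0.05. Over all genes tested, 18.4% were called lower and 18.6% higher. The count of lower Hox genes was near that background. Each of the 8 was high in at least 1 young WT library, and their number is a description only.

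Hoxa5 had the largest of the called falls, with a log2 fold change of -7.77 ± 1.67 (SE, adjusted p = 0.00795, edgeR). The others lower in old WT were Hoxb8 at -7.37, Hoxa4 at -6.79, Hoxa10 at -6.78, Hoxb5 at -6.39, Hoxa7 at -5.80, Hoxb4 at -5.15 and Hoxa9 at -4.47, with adjusted p between 0.0135 and 0.0345 (edgeR). Hoxa3, at -1.73 ± 1.14, was not called (edgeR, adjusted p = 0.206). Leaving out any 1 of the 9 libraries left Hoxa5 called each time, at -8.17 to -7.39. The Hoxa10 call was lost without old WT replicate 3, the Hoxa7 call without old WT replicate 2 or 3, and the Hoxb4 and Hoxb5 calls without any 1 old WT replicate. The Hoxa9 call was lost without young WT replicate 2 or any 1 old WT replicate. Without young WT replicate 2, Hoxa4 came to -1.27, and without young WT replicate 1, Hoxb8 came to -2.26; neither was then called, nor were they without any 1 old WT replicate.

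These sizes depend on how libraries are scaled. The scaling factors of edgeR's TMM method were 3.18 to 5.37 in old WT and 0.173 to 0.333 in young WT. Scaling by total counts in genes instead moved the median log2 fold change of all genes by 3.90. On that scale Hoxa5 was the only Hox gene called lower, at a log2 fold change of -3.69 (adjusted p = 0.0208, edgeR), 29 of 38 were called higher, and Hoxa3 turned to 2.00. Over all genes 3.48% were called lower and 68.4% higher on that scale, so the higher Hox calls were near the general share. In CPM with no model, 2 Hox genes were lower in every old WT than in every young WT library, Hoxa5 and Hoxa10, against 5.89% of genes, and 28 were higher, against 65% of genes. Measured against the density of the silent clusters in the same library, 10 of 39 Hox genes were lower without overlap, against 30.5% of genes, and 6 were higher, against 7.06%. The Hoxc and Hoxd genes that set this scale are counted too. Hoxc gave 1 of the lower and 1 of the higher ones, and Hoxd 0 and 3. Hoxa5, Hoxa7, Hoxa9, Hoxa10 and Hoxb4 were among the lower ones. So were Hoxb2, Hoxb6 and Hoxc12, which passed the background in no library of either group.

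**Figure D4:**
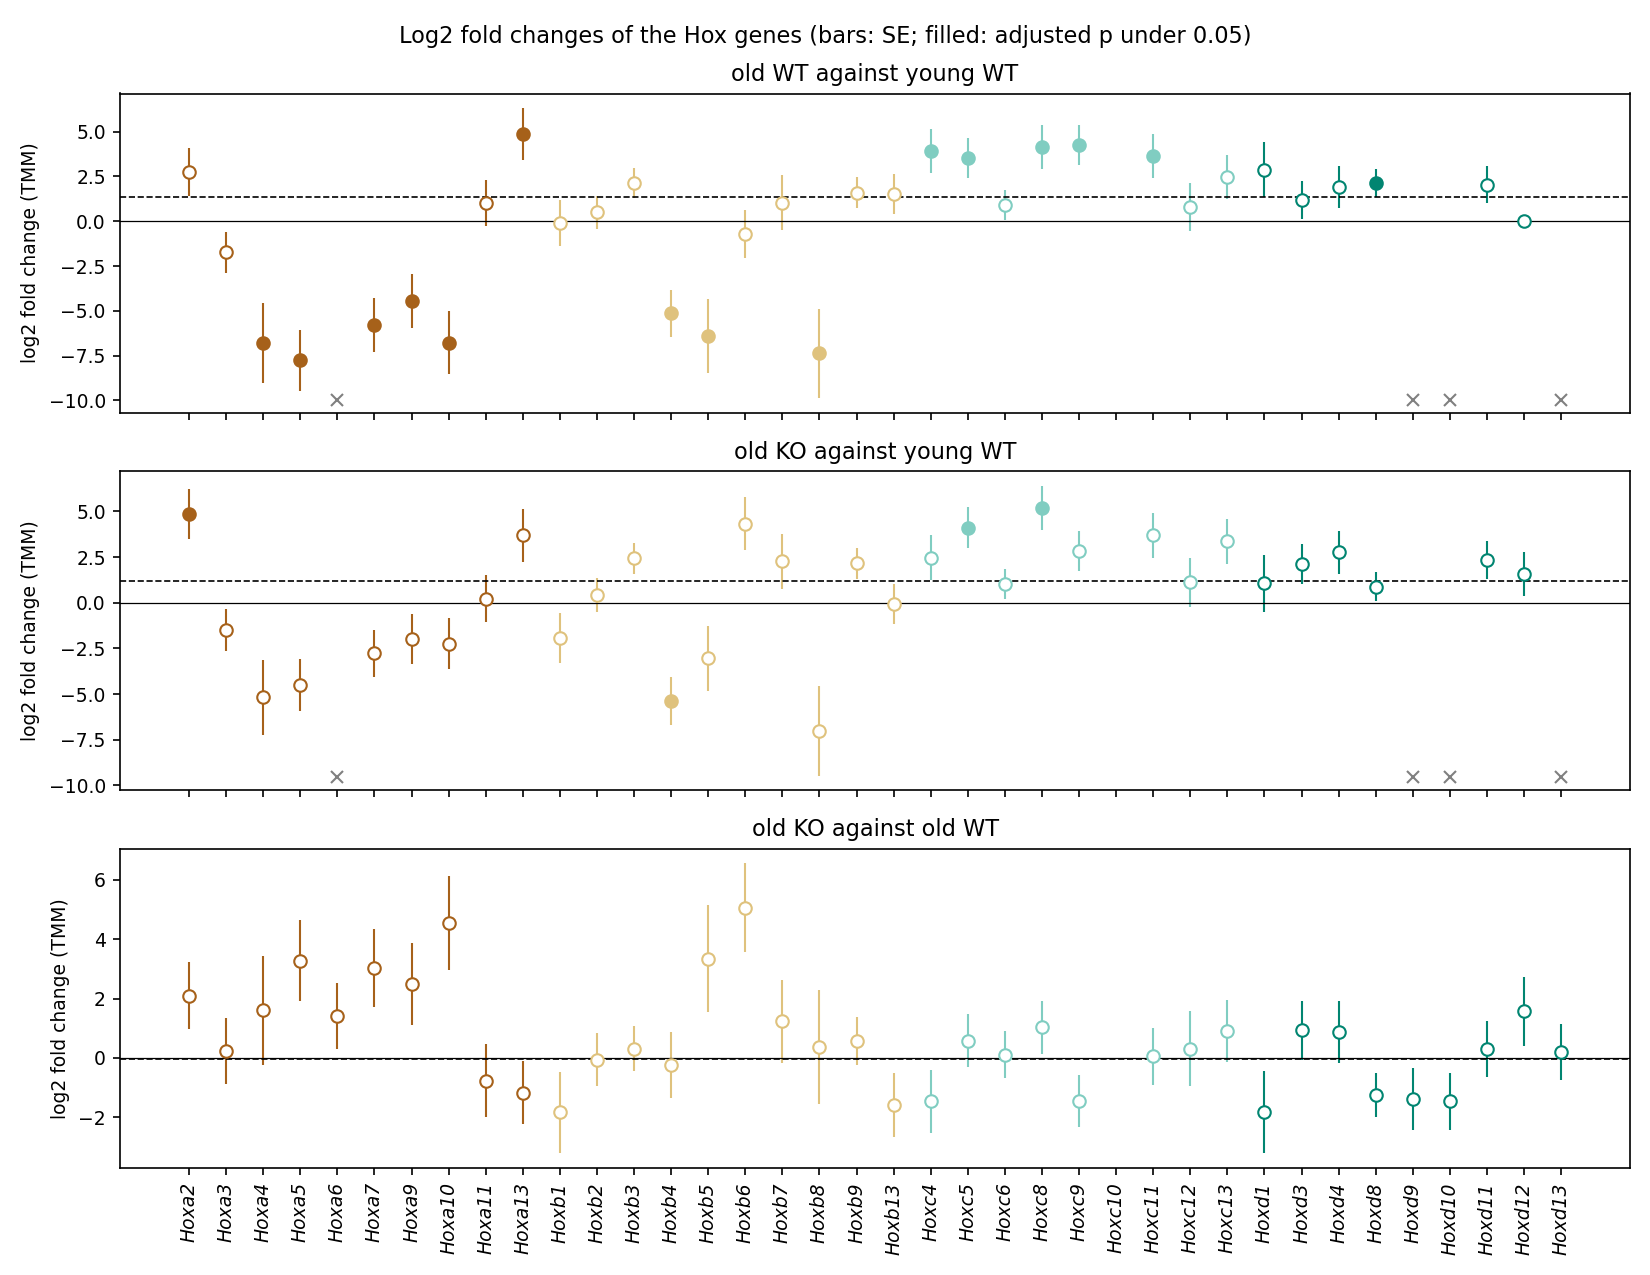
Log2 fold change with TMM scaling (vertical axis) of the Hox genes shown (horizontal axis, coloured by cluster) in the 3 comparisons, with bars for the SE and filled points for adjusted p under 0.05 (edgeR). Crosses at the lower edge mark genes at 0 counts in all young WT libraries, which have no value, Hoxc10 was not tested and has no point, Hoxd12 at 0 has no bar in the first panel, and dashed lines mark the median of all genes tested. In the first panel 8 filled points of Hoxa and Hoxb lie below -4 and filled Hoxc points lie above 3.

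The 11 genes called higher in old WT were Hoxa6, Hoxa13, Hoxc4, Hoxc5, Hoxc8, Hoxc9, Hoxc11, Hoxd8, Hoxd9, Hoxd10 and Hoxd13. None of them was above background in any library of either group. Hoxc9 was at 4.26 ± 1.10 and Hoxa13 at 4.86 ± 1.45 (log2, SE; edgeR, adjusted p = 0.0141 and 0.0228). Of these 11, Hoxa6, Hoxd9, Hoxd10 and Hoxd13 had 0 counts in all young WT libraries; against 3 counts in each young WT library their mean CPM in old WT was at least 14.5-fold, 58.9-fold, 66.0-fold and 53.3-fold higher. The reads per kb of olfactory receptor exons, given above, were higher in old WT as well, although its libraries held fewer counts in genes. That density is not divided by counts in genes, as CPM is, so its values as given understate its rise beside these bounds. Its rise on the CPM scale was not worked out here. In CPM the silent Hoxc cluster, which holds none of the genes with these bounds, summed to 44.6 ± 20.1 in old WT. In young WT it summed to 0.473 ± 0.218 (SD, n = 3 each). The part of background in these calls was not tested. Without any 1 old WT replicate the higher calls numbered 5, 4 and 3, and without young WT replicate 1 or 2 they numbered 7 and 5, and without old KO replicate 1 or 2 they numbered 7 each; the lower calls numbered 3, 2 and 1 without old WT replicate 1, 2 or 3.

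How far depth allowed these genes to be seen in old WT was read from the counts. At the mean young WT level in CPM, Hoxa5 would have given 346, 213 and 233 counts in the old WT libraries, and at the lowest young WT level 173, 106 and 117. It gave 20, 8 and 32, while the background alone gives 18.6, 10.2 and 19.5. In each old WT library Hoxa5 was near the background count and below the count at the lowest young WT level. The counts in genes that scale these levels include background reads themselves. For Hoxb4 the young WT mean would have given 42.7, 26.3 and 28.8 counts against a background of 25.4, 13.9 and 26.7, so depth and background did not allow the young WT level of Hoxb4 to be told from background. In bulk libraries fewer cells that use a gene and less RNA per cell cannot be told apart.

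**Figure D5:**
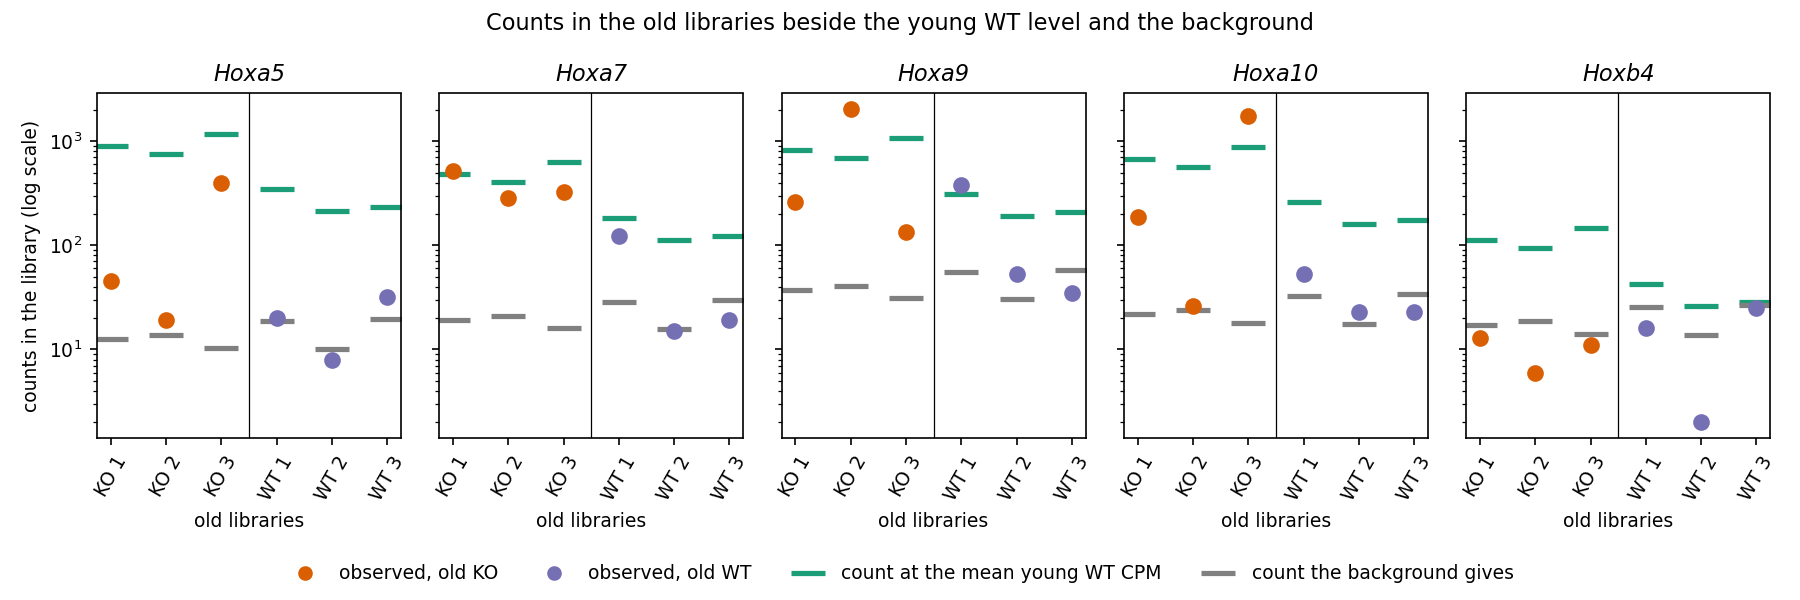
Observed counts (points) of 5 Hox genes in the old libraries, with the count that the mean young WT CPM would give (green bars) and the count that the background gives (grey bars), on a log axis. Hoxa5 lies near the grey bars in all 3 old WT libraries, while Hoxa7 lies far above them in all 3 old KO libraries.

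Old KO was set against old WT to ask what the Sphk2 genotype did to old cells. No Hox gene passed the test in either direction. The 3 Hoxa genes above background in at least 2 old KO libraries, against 0 in old WT, stand beside 5.85% of all genes in old KO and 1.21% in old WT. Among protein-coding genes these shares were 12.5 and 1.96%. edgeR called 0 of 38 higher and 0 lower, against 0.457% of all genes higher and 0% lower. By unadjusted p in edgeR, 4 of 38 Hox genes were under 0.05, namely Hoxa5, Hoxa7, Hoxa10 and Hoxb6. Over all genes 3849 of 32582 were, so the Hox count was near the general share. DESeq2 called 1 gene higher, Hoxa5, at a log2 fold change of 2.79 (adjusted p = 0.0424), where edgeR gave 3.27 ± 1.36 (SE, adjusted p = 0.331); its high old KO library was replicate 3 alone. DESeq2 gave no p for Hoxa4, Hoxa10, Hoxb6 and Hoxb8 in any comparison. The edgeR log2 fold changes were 4.55 ± 1.58 for Hoxa10, 3.03 ± 1.32 for Hoxa7 and 2.49 ± 1.37 for Hoxa9 (SE; adjusted p = 0.232, 0.359 and 0.561). Without old KO replicate 3, which held 1769 counts of Hoxa10, the Hoxa10 value came to 1.71, and without old KO replicate 2, which held 2036 counts of Hoxa9, the Hoxa9 value came to 0.570, in a range up to 3.90. On total counts, which moved the median of all genes by -1.88, Hoxa10, Hoxa7 and Hoxa9 were at 2.26, 1.25 and 1.04.

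Against the silent clusters of its own library, Hoxa7 stood at 22.9, 15.03 and 28.1 times in old KO and at 4.26, 1.35 and 0.760 times in old WT. These groups did not overlap, which was so in this direction for 7 of 39 Hox genes and 9.9% of genes, and in the other direction for 3 of 39 and 4.82%. Genes that set this scale are among them: Hoxc gave 2 of the 7 and 0 of the 3, and Hoxd 2 and 2. Hoxa9 stood at 6.01, 55.6 and 5.92 times in old KO and at 6.72, 2.45 and 0.722 times in old WT, and these groups overlapped. In CPM, 0 Hox genes were higher without overlap in old KO, against 1.91% of genes, and 20 were lower, against 48.8% of genes. The old KO libraries held more counts in genes and a smaller share outside genes than each old WT library, and the part of this in the Hox differences was not tested.

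Old KO was also set against young WT, which shares its young libraries with the comparison above. Hoxb4 was lower and 7 genes of low count were higher. The Hoxb4 log2 fold change was -5.39 ± 1.33 (SE, adjusted p = 0.0332, edgeR), as the only lower call, against 5.84% of all genes. Its libraries did not overlap in CPM, at 0.966, 0.532 and 0.627 in old KO and 3.03, 16.8 and 5.19 in young WT. On total counts it stayed called, at -3.55 (adjusted p = 0.0174, edgeR), as the only lower Hox call against 3.93% of all genes, while 21 were called higher against 52.7%. It lost its call without any 1 old library, the adjusted p then lying between 0.0508 and 0.1001 (edgeR), while its size stayed between -5.71 and -4.82 over the 9 runs. Hoxa5, at -4.50 ± 1.44, just missed the threshold (edgeR, adjusted p = 0.0504), and DESeq2 called it at -4.78. In CPM, 2 Hox genes, Hoxa5 and Hoxb4, were lower in old KO without overlap, against 4.07% of genes, and 23 were higher, against 53.5% of genes. Against the density of the silent clusters, 7 of 39 were lower, against 25.4% of genes, and 5 were higher, against 6.09%. Genes that set this scale are among them: Hoxc gave 0 of the lower and 1 of the higher ones, and Hoxd 1 and 3.

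The other young WT genes had values of -7.01 for Hoxb8, -3.05 for Hoxb5, -2.77 for Hoxa7, -2.23 for Hoxa10, -1.98 for Hoxa9 and -1.50 for Hoxa3, none called, and on total counts Hoxa9 and Hoxa3 turned to 0.190 and 0.400 while the median of all genes moved by 2.01. These values rest on single libraries. Leaving out young WT replicate 1 brought Hoxb8 to -1.85, Hoxa7 to -1.76 and Hoxa10 to -1.24, leaving out young WT replicate 2 brought Hoxb5 to -1.99 and Hoxa9 to -1.16, and leaving out young WT replicate 3 brought Hoxa3 to -0.38. In the other direction, Hoxb5 came to -6.05 and Hoxa10 to -5.19 without old KO replicate 3, and Hoxa9 to -4.07 without old KO replicate 2. In old KO Hoxa7 reached 514, 284 and 326 counts, where the young WT mean would give 481, 403 and 627. The 7 higher calls were Hoxa2, Hoxa6, Hoxc5, Hoxc8, Hoxd9, Hoxd10 and Hoxd13, against 6.92% of all genes. Of these, Hoxa2 alone was above background, in old KO replicate 3; without that library its value was 2.02 and not called, against 4.85 ± 1.37 with it. Leaving out 1 library gave between 0 and 4 higher calls.

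The Hox clusters also hold antisense RNAs and miRNA genes. The counting strand is not given in the sources used here, so reads of a gene and its antisense partner cannot be told apart where exons overlap. Hoxaas3, antisense to Hoxa7 and Hoxa3, had 29, 21 and 7 counts in old KO, 21, 26 and 25 in old WT and 900, 0 and 1 in young WT libraries. It was high in young WT replicate 1 alone, the library with the most Hoxa7. Hoxb5os, antisense to Hoxb5, had 4, 7 and 670 counts in old KO, 9, 6 and 4 in old WT and 0, 0 and 56 in young WT. Its high library, old KO replicate 3, is the one with 544 counts of Hoxb6 and 230 of Hoxb5. The pseudogene Gm11539, inside the Hoxb cluster, was above background in all old KO and all young WT libraries, with 71, 56 and 94 counts in old KO, 22, 5 and 8 in old WT and 218, 192 and 97 in young WT.

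Of the 7 miRNA genes annotated inside the clusters, 5 belong to 2 seed families, and Mir615 and Gm44463 are the other two. The families are shown because members of each family lie in different clusters. The seed, bases 2 to 8, is in capitals (RefSeq, GRCm38.p6). The mature miR-10a-5p lies at chr11:96317186-96317208 on the plus strand, miR-10b-5p at chr2:74726074-74726096 on the plus strand and miR-196b-5p at chr6:52230129-52230150 on the minus strand. The mature miR-196a-5p comes from both chr11:96265187-96265208 and chr15:102973365-102973386, on the plus strand.
miR-10a-5p: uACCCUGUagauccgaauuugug
miR-10b-5p: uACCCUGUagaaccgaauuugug
miR-196a-5p: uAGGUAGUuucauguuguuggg
miR-196b-5p: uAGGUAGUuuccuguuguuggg
Mir10a, Mir10b, Mir196a-1, Mir196a-2 and Mir196b had 0 to 11 counts in any library. This was not a small RNA assay, so the counts say nothing of mature miRNA levels.

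The nearest protein-coding genes outside the clusters give a further comparison, although some lie far from the cluster. The 3 nearest protein-coding genes on each side were taken, 6 for each cluster. Beside Hoxa, 2 of 6 were above background in 2 or more old KO libraries, 0 in old WT and 5 in young WT. Beside Hoxb the counts were 2, 0 and 2 of 6 in the same order. Beside Hoxc the counts were 2, 2 and 4 of 6, and beside Hoxd 2, 0 and 5 of 6, in the same order of groups, where protein-coding genes in general gave 12.5, 1.96 and 35.4%. Atp5g3, a subunit of ATP synthase taken for the Hoxd cluster, ends at 73911326 on chromosome 2, while that cluster starts at 74668310. It had 6417, 1927 and 4271 counts in old KO, 22, 49 and 52 in old WT and 20205, 13120 and 8239 in young WT. Beside the Hoxc cluster, Hnrnpa1, an RNA-binding protein, had 16504, 13193 and 21600 counts in old KO, 1657, 1624 and 1618 in old WT and 118646, 38327 and 59549 in young WT. Some neighbours were low, while others not listed here were high in young WT. Evx2, the homeobox gene next to Hoxd13, had 12, 29 and 28 counts in old KO, 33, 16 and 13 in old WT and 10, 5 and 1 in young WT. Smug1, a DNA repair gene and the nearest one beyond the Hoxc4 end, had 3, 20 and 8 counts in old KO, 34, 3 and 190 in old WT and 15, 1 and 0 in young WT.

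Genes known to work with Hox proteins or to regulate the clusters gave lower calls in old WT than in young WT with TMM scaling, and few calls with total counts. Among 9 TALE homeodomain cofactors, which bind DNA with HOX proteins, 4 were called lower in old WT and 0 higher, with a median log2 fold change of -4.18. Of 18 activators of the MLL and DOT1L pathways 11 were lower and 0 higher, with a median of -4.58, and of 25 Polycomb genes 15 were lower and 0 higher, with a median of -4.95. Of 8 reported HOXA9 and MEIS1 targets 4 were lower and 0 higher, with a median of -4.35. The median over all genes tested was 1.37, and with TMM scaling 18.4% of them were called lower and 18.6% higher. On total counts the lower and higher calls were 1 and 2 for the TALE list, 2 and 0 for MLL and DOT1L, 3 and 3 for Polycomb and 0 and 0 for the targets, where 3.48% of all genes were called lower and 68.4% higher. Leaving out 1 library gave 3 to 5, 7 to 13, 3 to 16 and 2 to 5 lower calls in these 4 lists, and the Polycomb calls numbered 6, 6 and 3 without old WT replicate 1, 2 or 3 and 10 without young WT replicate 1.

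In the same fit, 8 homeobox genes of the ParaHox and Evx families, relatives of the Hox genes, gave 3 higher calls and 0 lower, with a median of 2.24 (8 and 0 on total counts). Over all genes 18.6% were called higher with TMM scaling and 68.4% on total counts. The 8 genes were above background in at least 2 libraries of no group. Gsx2 was above background in old WT replicate 3, with 18, 7 and 5 counts in old KO, 11, 3 and 1541 in old WT and 4, 0 and 0 in young WT. Meis1, the main HOXA9 cofactor in blood, stood at 27.9, 567 and 174 CPM in old KO, 34.6, 13.7 and 27.8 in old WT and 155, 252 and 95.5 in young WT. Its log2 fold change in old WT against young WT was -6.71 (edgeR, adjusted p = 0.00728). Meis1 overlapped between old KO and young WT libraries, and all 3 young WT libraries lay above all old WT ones. Pbx2 at -6.39, Pknox1 at -4.87, Npm1 at -5.57, Mllt10 at -6.74, Psip1 at -7.10, Ash2l at -4.46, Ezh2 at -6.77, Phc2 at -6.55 and Phc1 at -6.50 were called lower as well, and Rbbp7 at -2.27 was not. Of the HOXA9 and MEIS1 targets, Myb at -5.86, Lmo2 at -5.14 and Mef2c at -4.09 were called lower and Cd34 at -3.37 was not.

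In old KO against old WT, edgeR called 1 gene of these lists, Kdm6b, an H3K27 demethylase, at a log2 fold change of 6.64 (adjusted p = 0.0338). That call was lost on total counts and without old KO replicate 3 or any 1 WT replicate. In old KO against young WT with TMM scaling the TALE list had 1 lower call, the MLL and DOT1L list 5, the Polycomb list 5 and the target list 2, with 0 higher calls in each, and the ParaHox and Evx list 1 higher call. Over all genes 5.84% were called lower and 6.92% higher in that comparison. Stem cell markers moved with these lists. Of 11, 7 were called lower in old WT than in young WT with TMM scaling, against 18.4% of all genes. On total counts 3 were called lower, against 3.48%. The summed level of the 11 markers was 2011 to 3434 CPM in old KO, 606 to 1971 in old WT and 1992 to 2592 in young WT. Of 25 lineage and stromal markers, 3 were above background in at least 2 old KO libraries, 1 in old WT and 9 in young WT; their summed level was 147 to 835, 244 to 892 and 544 to 974 CPM. Of these, 4 were called higher and 8 lower in old WT than in young WT, against 18.6 and 18.4% of all genes. In old KO against young WT 2 were higher and 4 lower, against 6.92 and 5.84%. Cd48, which the sort excludes, was above background in at least 2 libraries of no group. What part the differences in cell markers had in the Hox differences was not tested.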

How the data were processed

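For 9 libraries the authors deposited unnormalized counts by gene. Among tools, HTSeq 0.10.0 and STAR 2.6.1d are listed by the submitters' processing notes, together with edgeR 3.24.3, Trim Galore 0.6.2 and, as genome build, mm10. The annotation used and the strand setting were not given in the sources used here. Of the identifiers, 52403 received a symbol from GENCODE M21, which also gave exon lengths. The 5 lines that name no gene stayed out of library sizes and tests. edgeR 4.0.16 in R 4.3.3 (filterByExpr, TMM, quasi-likelihood test, 1 mean per group, all 9 libraries) tested all genes, with Benjamini-Hochberg adjustment at 0.05; DESeq2 1.42.0 was an alternative. Each SE of an edgeR fold change was worked back from that fold change and its p-value, so it is no separate measure of spread. The script was tested on simulated data. The olfactory receptor density left out the densest 1% of those genes. Values relative to the silent clusters, and counts of genes without overlap on that scale, were added after the values were seen. The members and lists were chosen with earlier results of these data known. Values in every library are given for members above background in at least 2 libraries of a group or called with a mean of at least 1 CPM; members with a single high library were named after their values were seen. From each partner list the members named are among the 4 with the highest young WT level, and Kdm6b is named for its call in old KO against old WT. Some genes that these rules cover are not reported here. Fold changes are given only where a group of the comparison had the member above background in 2 libraries or the test called it, and no group was at 0. Depth limits low genes in old WT most.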

Additional observations from a re-analysis of the deposited data

How the results depend on the processing

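With total counts as the only scaling, old WT against young WT gave 29 higher and 1 lower call and old KO against young WT 21 higher; log2 fold changes that changed sign were Hoxa3 at 2.00 in old WT, and Hoxa3 at 0.400 and Hoxa9 at 0.190 in old KO, each against young WT. After each library's background was subtracted, 8 Hox genes could be tested and 0 were called in any comparison, where between 4 and 14 of 8629 genes were called. Hoxa5 then stood at -5.15 in old WT against young WT. Hoxb4, Hoxb5 and Hoxb8 had fewer counts than the background gives in every old WT library. Subtraction left them at 0 there, so no fold change is given. The same held for Hoxb4 in every old KO library. In old KO against young WT, Hoxb8 stood at -6.35, and Hoxa7, Hoxa9 and Hoxa10 at 0.0284, 0.956 and 0.0760. The stricter filter left 18 Hox genes tested and gave 7 higher calls in old WT against young WT, and 4 higher and 2 lower in old KO against young WT. The DESeq2 test gave 5 lower calls in old WT against young WT, 1 higher in old KO against old WT and 3 lower in old KO against young WT; it gave Hoxa4, Hoxa10 and Hoxb8 no p, while their values in old WT against young WT were -6.62, -6.76 and -7.46. DESeq2 size factors in edgeR gave 2 lower and no filter 3 lower calls in old KO against young WT. Leaving out 1 replicate gave 3 to 9 higher and 1 to 8 lower calls in old WT against young WT, and 0 to 4 higher and 0 to 2 lower in old KO against young WT; genes above background numbered 1 to 2 in old KO and 5 to 7 in young WT. At 10 times background 1 gene passed in old KO. Replicate numbers did not pair the libraries (same-number correlations of deviations from -0.0312 to 0.0239); a fit with the replicate number as a block gave 5 lower calls in old WT against young WT, and 0 higher and 0 lower in old KO against young WT. Over all genes the block gave 7076 calls against 12058 in old WT against young WT, 2 against 149 in old KO against old WT and 0 against 4158 in old KO against young WT. Apart from the construction of these alternatives, the cause was not tested. Members near background cannot be told from 0 in old WT at this depth.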

Other observations

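Several members were above background in 1 library of a group alone. In old KO they were Hoxa2, Hoxa5, Hoxb5 and Hoxb6, all in replicate 3, the library with the most counts in genes of its group and the lowest share outside genes, at 45.0%. In young WT they were Hoxb1 in replicate 1 and Hoxa4 in replicate 2; Hoxa4 also stood at 6.92 times background in replicate 1, where its 13 counts were under the minimum of 20. Positions 1 to 3 of all clusters summed to 12.7 ± 2.01 CPM in old KO, 40.2 ± 8.51 in old WT and 2.84 ± 1.63 in young WT, positions 4 to 8 to 65.5 ± 28.1, 64.1 ± 13.2 and 164 ± 1.63, and positions 9 to 13 to 123 ± 74.7, 107 ± 38.3 and 112 ± 55.0 (SD, n = 3 each, groups in the same order). All these sums include background reads. Of the genes at positions 1 to 3, only Hoxa2, in old KO replicate 3, was above background in any old library. The silent Hoxc cluster, which has no gene at these positions, summed to 10.9, 44.6 and 0.473 CPM in the same order of groups. The part of background in the differences between groups was not tested.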
